A study of Rattus norvegicus with 4 samples.

Results

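The 5 mature miRNAs miR-23a-3p, miR-23b-3p, miR-27a-3p, miR-27b-3p and miR-24-3p were followed in cultured smooth muscle cells of the rat aorta given the pressor peptide hormone angiotensin II (Ang II). They were taken as 5 of the 691 mature names that RefSeq lists for the rat (assembly GRCr8, 692 sequences), and a read joined a miRNA when its first 18 nt were identical to the start of the mature sequence. Where these did not decide between 2 miRNAs, the longest common start did, and ties were shared equally. The cells came from Sprague-Dawley rats, were grown in medium with 10% FBS, were kept without serum for 48 h, and were then left untreated (control) or given 100 nM Ang II for 1 h, 3 h or 24 h. Each of these 4 groups is 1 small RNA library, and the labels name no time for the control, no passage and no number of animals. No test of a condition was therefore possible, and the effect of Ang II cannot be told apart from that of time in the dish. Where several values stand in a row, 4 are in the order control, 1 h, 3 h and 24 h, and 3 are the Ang II times in that order. All intervals are 95% intervals of counting error alone, and a level in RPM is in reads per 1000000 deposited reads that name a sequence.

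The libraries held 14395539, 13119417, 14370167 and 14534892 such reads, and between 68.4% and 74.4% of them began like a rat miRNA. The smooth muscle list (miR-143 and miR-145, both arms) summed to 251047 to 312678 RPM, the lowest in the control, against 105 to 125 RPM for the 2 arms of the endothelial miR-126a. Most of the smooth muscle reads were miR-143-3p. Of the blood and immune list 2 of 5 matched arms had reads, and the list summed to 0.457 to 0.757 RPM, with miR-142-5p, miR-223-3p and miR-144-3p at 0 reads. Striated muscle (3 of 6 arms with reads, 98.4 to 122 RPM, with miR-133b-3p, miR-208a-3p and miR-208b-3p at 0), epithelial (3 of 3, 3.55 to 6.40 RPM), neural (1 of 1, 31.6 to 43.8 RPM) and liver lists (1 of 1, 0.0688 to 0.229 RPM) were low against smooth muscle. Most of the striated muscle reads were miR-1-3p, at 119, 107, 97.5 and 96.7 RPM. Its other arms with reads were miR-206-3p (1.44 to 2.64 RPM) and miR-133a-3p (0.0762 to 0.765 RPM). Endothelial cells also make miR-23, miR-27 and miR-24, and what share of the reads comes from other cells was not tested.

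In mammals these miRNAs are made from a pair of gene clusters, each giving a single long transcript that is cut into 3 hairpins. Each hairpin has a 5p and a 3p arm, and the 3p arm is usually the abundant one. miR-23 represses glutaminase among others, miR-27 represses the fat cell factor PPAR-gamma and, with miR-23, inhibitors of vessel sprouting, and miR-24 represses cell cycle genes and, in smooth muscle given platelet-derived growth factor, the Tribbles-like protein Trib3. A miRNA finds its targets mainly through its seed, bases 2 to 8, so the a and b forms are thought to share most targets.

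The a cluster lies on the minus strand at chr19:40859455-40859843 (GRCr8), a span of 389 bp that holds Mir23a, Mir27a and Mir24-2 and overlaps no other gene of the RefSeq table. The b cluster lies on the minus strand at chr17:1818669-1819482, a span of 814 bp that holds Mir23b, Mir27b and Mir24-1 within the listed spans of the genes Aopep and Fancc. The table does not say whether this is exon or intron. The antisense gene Mir3074 overlaps Mir24-1. The mature RefSeq sequences are shown since the a and b forms differ at a single base, with the seed in capitals.
miR-23a-3p: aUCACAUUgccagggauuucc
miR-23b-3p: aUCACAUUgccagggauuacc
miR-27a-3p: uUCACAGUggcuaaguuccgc
miR-27b-3p: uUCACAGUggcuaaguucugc
miR-24-3p: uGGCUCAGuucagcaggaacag
Counted from the 5′ end, miR-23a-3p and miR-23b-3p differ by U19A, and miR-27a-3p and miR-27b-3p by C19U. The first 18 bases of each pair are thus the same, and a read had to reach base 19 to be assigned. Tied reads made up 0.754% to 1.16% of the reads of miR-23a-3p and miR-23b-3p and 0.144% to 0.382% of those of miR-27a-3p and miR-27b-3p. miR-24-3p is the same in Mir24-1 and Mir24-2, so its reads cannot be split by locus.

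The 5 miRNAs together held 2.82%, 3.18%, 2.95% and 2.76% of the reads. miR-24-3p was by far the most read, with 16813 RPM in the control (242028 reads), then 19861, 17838 and 16257 with Ang II, and took the seventh place among all rat miRNAs in each library, as 59.7%, 62.5%, 60.5% and 58.9% of the reads of the 5. Its highest level was at 1 h and its lowest at 24 h. miR-27b-3p followed with 5034 RPM in the control (72473.5 reads, ties leaving fractions of a read), then 5441, 5305 and 4594 with Ang II, again highest at 1 h and lowest at 24 h. miR-27a-3p, its form from the a cluster, held 2260 RPM in the control (32533.5 reads), then 2827, 2568 and 2492 with Ang II, so that all 3 Ang II libraries lay above the control.

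The miR-23 forms were read less. miR-23a-3p held 2235 RPM in the control (32174.5 reads), then 2111, 2193 and 2560 with Ang II, with the 24 h library alone above the control. miR-23b-3p held 1827 RPM in the control (26295.5 reads), then 1546, 1598 and 1691 with Ang II, all 3 below the control. In the order of levels only the neighbours miR-27a-3p (2236 to 2285 RPM) and miR-23a-3p (2211 to 2260 RPM) had overlapping intervals in the control. At 24 h miR-23a-3p (2535 to 2587 RPM) stood above miR-27a-3p (2467 to 2518 RPM), the reverse of their order at 1 h and 3 h. Reads of different miRNAs also depend on how well each end is ligated, which was not measured here.

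**Figure D1:**
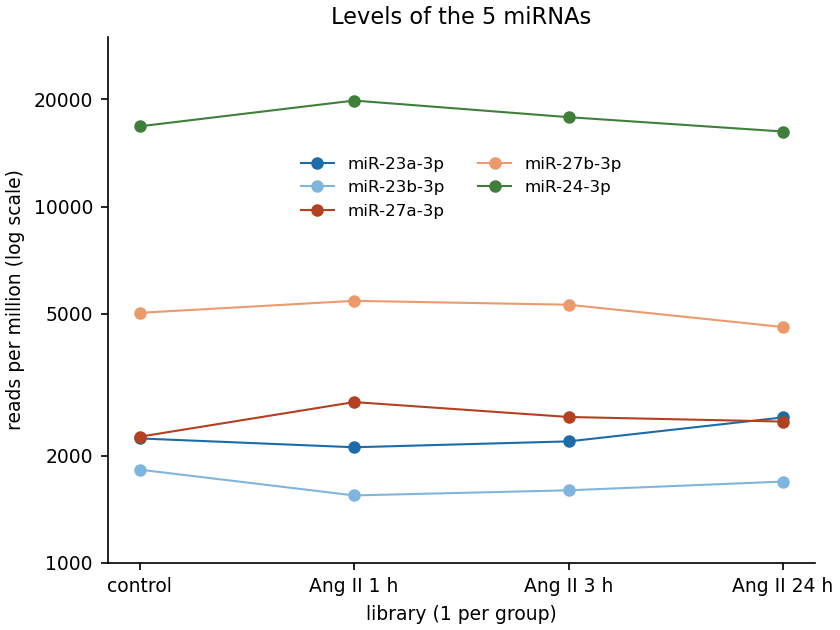
RPM of each miRNA (vertical axis, log scale) in the 4 libraries (horizontal axis), 1 point per library. miR-24-3p lies between 16257 and 19861 RPM in all libraries, and miR-23a-3p passes miR-27a-3p at 24 h.

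Against the control, none of the 5 miRNAs was past 1.5-fold at 1 h, 3 h or 24 h, a limit set on log2((RPM + 1)/(RPM + 1)) with at least 100 reads in the higher library. Of all rat miRNAs with such reads, 4.62% were past it at 1 h (8 of 173), 8% at 3 h (14 of 175) and 21.5% at 24 h (38 of 177). Upward they were 2.31%, 4% and 5.08%, and downward 2.31%, 4% and 16.4%. This split depended on the scale: at 24 h 9 miRNAs were past the limit upward and 29 downward, against 15 and 9 with TMM factors, 13 and 12 with median-of-ratios factors and 9 and 44 when scaled to miRNA reads. At 1 h it was 4 and 4, against 7 and 3 with either set of factors and 3 and 9 on miRNA reads, and at 3 h 7 and 7, against 12 and 7, 10 and 7, and 5 and 14. miR-27a-3p came closest, with a log2 ratio of 0.32 at 1 h (1.23 to 1.27 times the control), and stood at 1.14 (1.12 to 1.15) and 1.10 times the control (1.09 to 1.12) later. It lay above the control at every time under all 4 scalings tried, with log2 ratios from 0.06 to 0.43. By log2 ratio it was in places 6, 15 and 11 of the 88 miRNAs with 1000 reads in every library.

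miR-24-3p stood at 1.18 (1.17 to 1.19), 1.06 (1.06 to 1.07) and 0.967 times the control (0.961 to 0.972). It was above the control at 1 h under all 4 scalings, but the sign turned at 3 h when scaled to miRNA reads (log2 ratio -0.04) and at 24 h with TMM and median-of-ratios factors (0.22 and 0.20). miR-27b-3p stood at 1.08 (1.07 to 1.09), 1.05 (1.04 to 1.06) and 0.912 (0.903 to 0.922), and its sign turned in the same settings (-0.05 at 3 h, 0.13 and 0.12 at 24 h). Both thus had their highest ratio at 1 h. miR-23b-3p stood at 0.846 (0.831 to 0.862), 0.875 (0.860 to 0.891) and 0.926 (0.910 to 0.942), below the control under all 4 scalings at 1 h and 3 h and above it at 24 h with TMM and median-of-ratios factors (log2 ratios 0.15 and 0.14). Counting its mature sequence alone also put it above the control at 24 h (log2 ratio 0.07). miR-23a-3p stood at 0.945 (0.929 to 0.960), 0.981 (0.966 to 0.996) and 1.15 (1.13 to 1.16), and with TMM factors it was on the other side of the control at 1 h and 3 h (log2 ratios 0.01 and 0.03), as with median-of-ratios factors (0.02 and 0.0071).

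The scale matters because the median log2 ratio of all miRNAs with 100 reads was -0.09, -0.05 and -0.25 when scaled to all reads, against 0.0018, 0.01 and 0.0081 with TMM factors. The medians of the 5 miRNAs were 0.11, 0.08 and -0.05, and with TMM factors 0.21, 0.14 and 0.22. They lay above the median of all miRNAs at each time. A change of scale moves both medians by nearly the same amount, so the 4 scalings could not differ on this. The smooth muscle list summed to 251047 RPM in the control and to 305774, 312678 and 308636 RPM with Ang II, and its part in these ratios was not tested. Most of this sum was miR-143-3p (248197, 302819, 309959 and 305533 RPM). miR-145-3p lay below the control at each time (240, 206, 198 and 231 RPM). miR-143-5p (335, 328, 304 and 409 RPM) and miR-145-5p (2275, 2421, 2216 and 2463 RPM) lay on both sides of it.

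**Figure D2:**
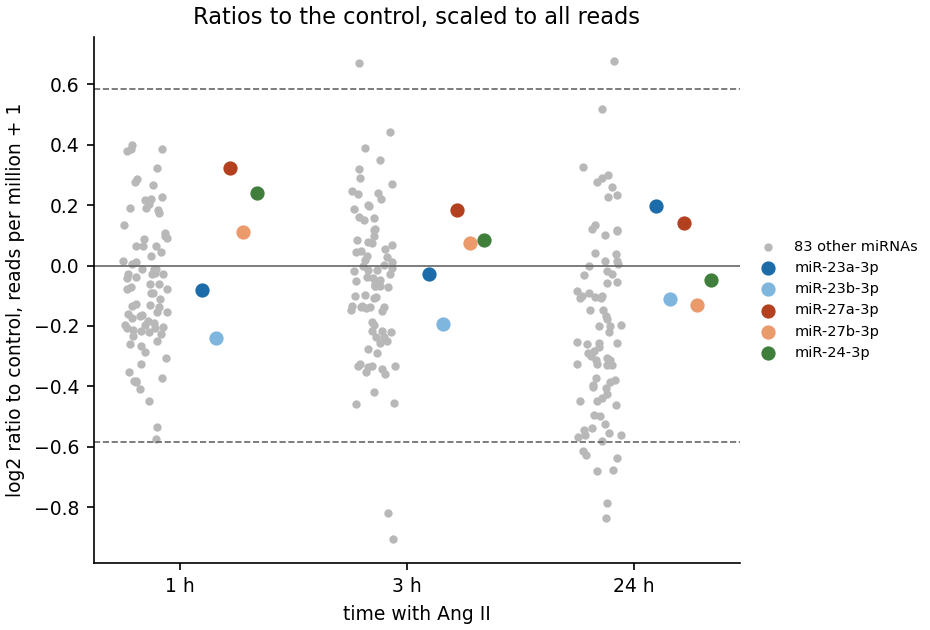
Log2 ratio to the control (vertical axis) at each time (horizontal axis), scaled to all reads, for the 5 miRNAs in colour and for 83 other miRNAs with 1000 reads in every library in grey. Dashed lines mark 1.5-fold. All coloured points lie between the dashed lines, and miR-23a-3p is highest of the 5 at 24 h and miR-27a-3p at 1 h and 3 h.

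Ratios between the miRNAs within a library do not depend on the scale, and by these the 3 families of the clusters did not keep a fixed proportion. The reads of miR-24-3p per read of miR-27 (a and b forms summed) were 2.30, 2.40, 2.27 and 2.29. Per read of miR-23 (both forms) they were 4.14, 5.43, 4.71 and 3.82. The reads of miR-27 per read of miR-23 were 1.80, 2.26, 2.08 and 1.67 in the same order. miR-24 and miR-27 thus stayed closer to each other than either did to miR-23, whose share was lowest at 1 h and highest at 24 h. Summed, the miR-23 forms stood at 0.900 times the control at 1 h (0.890 to 0.911), 0.933 at 3 h (0.923 to 0.944) and 1.05 at 24 h (1.03 to 1.06), and the miR-27 forms at 1.13 (1.12 to 1.14), 1.08 (1.07 to 1.09) and 0.971 (0.963 to 0.980). The order of miR-23 and miR-27 within each library holds at any scale, while the 24 h sum of miR-23 lay just below the control when scaled to miRNA reads (log2 ratio -0.0062), and the miR-27 sum lay below it at 3 h when scaled to miRNA reads (-0.01) and above it at 24 h with TMM and median-of-ratios factors (0.22 and 0.21).

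The forms of the a cluster held a larger share of their family in each Ang II library than in the control. miR-23a-3p made up 55.0% of the miR-23 reads in the control (54.6% to 55.4%), then 57.7% (57.3% to 58.2%), 57.8% (57.4% to 58.3%) and 60.2% (59.8% to 60.6%). miR-27a-3p made up 31.0% of the miR-27 reads in the control (30.7% to 31.3%), then 34.2% (33.9% to 34.5%), 32.6% (32.3% to 32.9%) and 35.2% (34.9% to 35.5%). The control had the lowest share in each family and the 24 h library the highest. The ratio of miR-23a-3p to miR-23b-3p differed from the control by 0.16 on the log2 scale at 1 h (0.12 to 0.19), 0.17 at 3 h (0.13 to 0.20) and 0.31 at 24 h (0.27 to 0.34), and that of miR-27a-3p to miR-27b-3p by 0.21 (0.19 to 0.24), 0.11 (0.08 to 0.13) and 0.27 (0.25 to 0.30). The 3 differences of a pair share the control library, so a control that stood apart would move all of them. Without replicates it is not known how far such a ratio differs between 2 untreated cultures.

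The miR-23 difference was not the same for all tags. With the listed mature sequence alone it was 0.0069 (-0.06 to 0.08), 0.060 (-0.0098 to 0.13) and 0.15 (0.08 to 0.22). By length, the 24 h difference was 0.04 for tags of 20 nt (-0.11 to 0.19), 0.14 for 21 nt (0.08 to 0.21) and 0.30 for 22 nt (0.20 to 0.39). It was 0.36 for 23 nt (0.29 to 0.42) and 0.05 for 24 nt (-0.02 to 0.13). The intervals of 20 nt and 24 nt thus include 0. At 24 h the tags of 22 and 23 nt thus lay farthest from the control. At 1 h those of 23 and 24 nt did (0.30 each), and at 3 h those of 23 nt (0.34). For miR-23 tags of 21 nt the intervals at 1 h (-0.07 to 0.07) and 3 h (-0.02 to 0.12) include 0. For miR-27 the mature sequence alone gave 0.21, 0.11 and 0.25. Its tags of 21 nt, which hold 89.4% to 90.6% of the miR-27a-3p reads, gave 0.20, 0.12 and 0.26. The miR-27 tags of 20 nt gave 0.28 (0.16 to 0.40), 0.37 (0.25 to 0.48) and 0.37 (0.25 to 0.49). They hold 3.61% to 4.00% of the miR-27a-3p reads and 8.98% to 10.7% of the miR-27b-3p reads. The few tags of 23 nt gave 0.04 (-0.16 to 0.24), -0.23 (-0.42 to -0.03) and -0.08 (-0.29 to 0.13), of which only the 3 h interval leaves out 0. Tags of 22 nt gave 0.07 (-0.07 to 0.20), 0.17 (0.03 to 0.30) and 0.11 (-0.03 to 0.25). Tags of 24 nt gave -0.07 (-0.43 to 0.28), -0.02 (-0.35 to 0.31) and 0.02 (-0.36 to 0.40). The miR-27 difference thus also varied with tag length.

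**Figure D3:**
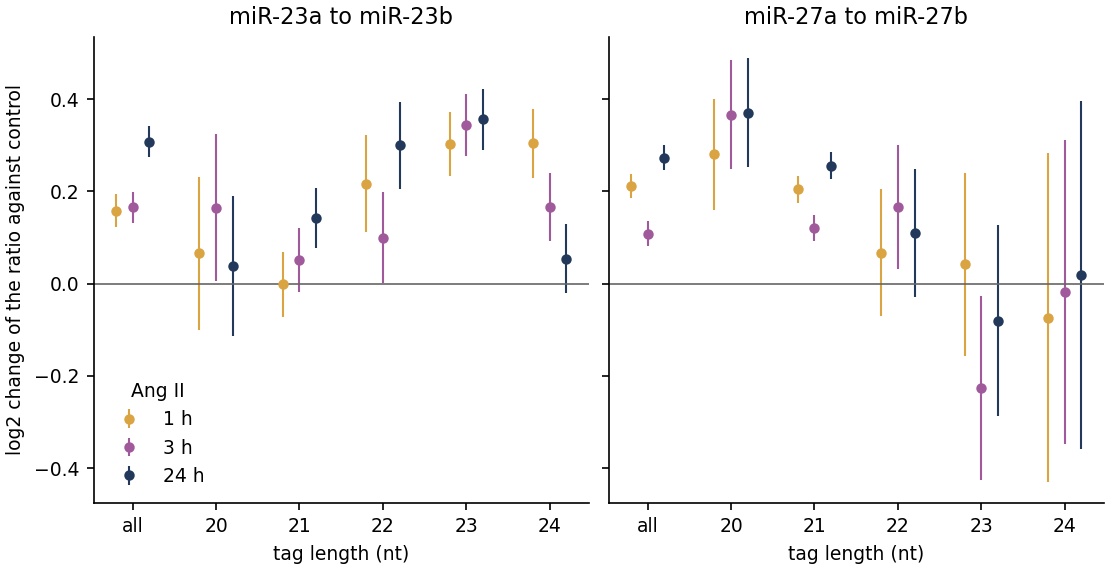
Log2 change against the control of the ratio of the a form to the b form (vertical axis) for all tags and for tags of 20 to 24 nt (horizontal axis), with bars for the 95% counting interval. With all tags every point is above 0, whereas miR-23 tags of 21 nt are near 0 at 1 h and miR-27 tags of 23 nt lie below 0 at 3 h.

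The 5p arms, which are mostly discarded, were all read far less than their 3p partners, and miR-27a-5p differed most between libraries of those with 100 reads. Its hairpin is shown with both listed arms in capitals (Mir27a, chr19:40859603-40859689, minus strand, GRCr8).
Mir27a: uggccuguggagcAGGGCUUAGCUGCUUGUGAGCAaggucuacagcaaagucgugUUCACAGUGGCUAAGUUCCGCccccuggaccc
miR-27a-5p had 1630 reads in the control, then 2340, 1854 and 943 with Ang II, which is 113, 178, 129 and 64.9 RPM. The 1 h library was the highest and the 24 h library the lowest. Relative to the control it was 1.58-fold at 1 h (1.48 to 1.68) and 0.573-fold at 24 h (0.528 to 0.621), past 1.5-fold in opposite directions, where 2.31% of miRNAs were past it upward at 1 h and 16.4% downward at 24 h. The 1 h value was within 1.5-fold when scaled to miRNA reads (log2 ratio 0.56 in place of 0.65), and the 24 h value with TMM and median-of-ratios factors (-0.53 and -0.55 in place of -0.79), with no turn of sign. In those settings 3 of 173 miRNAs were past the limit upward at 1 h, and 9 and 12 of 177 downward at 24 h.

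Against its own 3p arm the comparison does not depend on the scale. There were 5.01, 6.31, 5.02 and 2.60 reads of miR-27a-5p per 100 reads of miR-27a-3p. The 24 h difference was -0.94 on the log2 scale (-1.06 to -0.83) and the 1 h difference 0.33 (0.24 to 0.43). It took place 5 by size among the 46 hairpins whose minor arm had at least 100 reads in the control or at 24 h, of which 21.7% were past 1.5-fold. By the same rule it took place 17 of 44 at 1 h, where 13.6% were. The listed 5p sequence had 1388, 1989, 1584 and 810 of these reads, 85.2% in the control and 85.9% at 24 h, so its make-up hardly differed while its level did.

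The matching arm of the b cluster had no such course. miR-27b-5p had 1962 reads in the control, then 1572, 1903 and 1721 with Ang II, which is 2.71, 2.20, 2.50 and 2.58 reads per 100 of miR-27b-3p. Its ratio to its 3p arm was lowest at 1 h, where that of mir-27a was highest. miR-24-2-5p, from the a cluster, had 4238, 3794, 4471 and 4276 reads, and miR-24-1-5p, from the b cluster, had 151, 137, 229 and 146. miR-24-2-5p thus made up 96.6%, 96.5%, 95.1% and 96.7% of the 5p reads of miR-24, although the a and b forms of miR-23 and miR-27 were far closer to each other. Which locus gives the miR-24-3p reads does not follow from its 5p arms. miR-24-1-5p stood at 1.52 times the control at 3 h (1.23 to 1.88), with a log2 ratio of 0.56 that was within the limit, and of 0.63 and 0.60 with TMM and median-of-ratios factors, past it. miR-23b-5p had 26, 27, 18 and 14 reads, too few to compare. No 5p arm of Mir23a is listed in the reference, and its hairpin gave a tag there of 22 nt (ggggttcctggggatgggattt) with 15 reads in the control, then 15, 14 and 3 with Ang II.

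**Figure D4:**
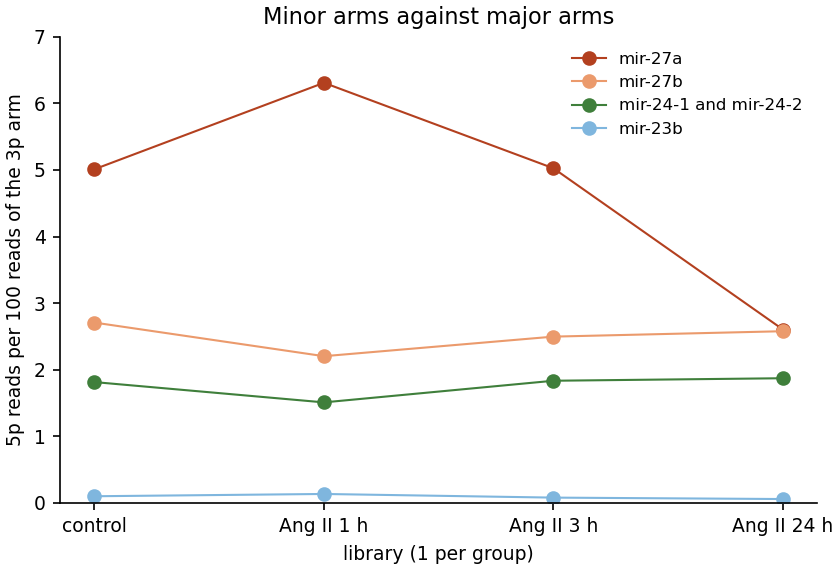
Reads of the 5p arm per 100 reads of the 3p arm (vertical axis) in the 4 libraries (horizontal axis), with the 2 arms of miR-24 summed. mir-27a is highest at 1 h (6.31) and lowest at 24 h (2.60), and mir-27b stays between 2.20 and 2.71.

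The 5 miRNAs differed widely in their 3′ ends. miRNAs can be trimmed or lengthened at the 3′ end, and enzymes can add U or A that the gene does not encode. Each read was compared with its hairpin, and bases that follow the longest encoded stretch were counted as added. The tags are shown because the added U, in capitals, is read as T and is not in the hairpin.
miR-23b-3p with an added U: atcacattgccagggattaccacT
miR-23a-3p with an added U: atcacattgccagggatttccaaT
miR-24-3p with an added U: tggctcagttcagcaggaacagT
The first of these was the most read tag of miR-23b-3p, with 8280 reads in the control, then 6564, 7235 and 7272 with Ang II, more than the listed mature sequence (5238, 4082, 4487 and 5560). In these libraries miR-23b-3p thus most often ended 2 bases after the listed end and then had a U. The miR-24-3p tag with U had 74501, 79472, 80829 and 71973 reads, against 107442, 116472, 112594 and 107542 for the listed sequence.

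U was added to 35.6%, 36.7%, 35.7% and 33.7% of the miR-23b-3p reads, and to 32.0%, 31.5%, 32.6% and 31.5% of the miR-24-3p reads. These were in places 2 and 4 of 76 miRNAs with 1000 reads in every library and a hairpin in the table, for which the median was 1.41% to 1.83%. miR-23a-3p had U on 15.4%, 16.8%, 14.9% and 12.4% of its reads, lowest at 24 h. miR-27a-3p (1.35% to 1.58%) was in places 37 to 44, near that median, and miR-27b-3p (3.11% to 3.35%) in places 23 to 25, above it. miRNAs cut from the same transcript thus carried very different shares of U, and so did miR-23a-3p and miR-23b-3p, whose sequences differ by a single base within the listed ends and by other bases beyond them.

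The share of U on miR-23a-3p was lowest at 24 h, as was the median share of the 76 miRNAs (1.83% in the control, 1.46% at 3 h and 1.41% at 24 h). At 24 h its reads with an added U stood at 0.927 times the control (0.890 to 0.965) and all its other reads at 1.19 (1.17 to 1.20), a log2 difference of -0.35 (-0.42 to -0.29) that does not depend on the scale. At 1 h the difference was 0.15 (0.09 to 0.22) and at 3 h -0.05 (-0.11 to 0.01). For miR-23b-3p it was 0.07, 0.0054 and -0.12, so that both forms had their lowest share of U at 24 h. For miR-24-3p it was between -0.03 and 0.04 at the 3 times. The mature tag of miR-23a-3p stood at 0.859, 0.894 and 1.17 times the control, and its tag of 22 nt, longer by an A that was counted as encoded, at 0.960, 1.03 and 1.38.

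A was added to 9.36%, 9.65%, 11% and 9.21% of the miR-27b-3p reads, to 5.83% to 6.33% of those of miR-24-3p, and to 1.48% to 4.83% of those of the other 3. The 3′ adapter used for these libraries begins with A, so an added A cannot be told from a base of adapter left by trimming. An A that the gene also encodes at that place counts as encoded. This is so after the listed end of both miR-23 forms and of miR-27b-3p, but not of miR-27a-3p or miR-24-3p. The shares of added A are thus not fully comparable between these miRNAs. miR-27a-3p was the most uniform, with 85.9%, 87.4%, 86.4% and 87.8% of its reads identical to the listed sequence, against 61.1% to 63.6% for miR-27b-3p, 43.9% to 45.5% for miR-24-3p, 31.4% to 35.2% for miR-23a-3p and 19.5% to 22.6% for miR-23b-3p. Mean tag lengths were 21 nt for miR-27a-3p, 21.2 to 21.4 nt for miR-27b-3p, 21.9 to 22.1 nt for miR-23a-3p, 22.2 nt for miR-24-3p and 22.7 to 22.8 nt for miR-23b-3p.

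**Figure D5:**
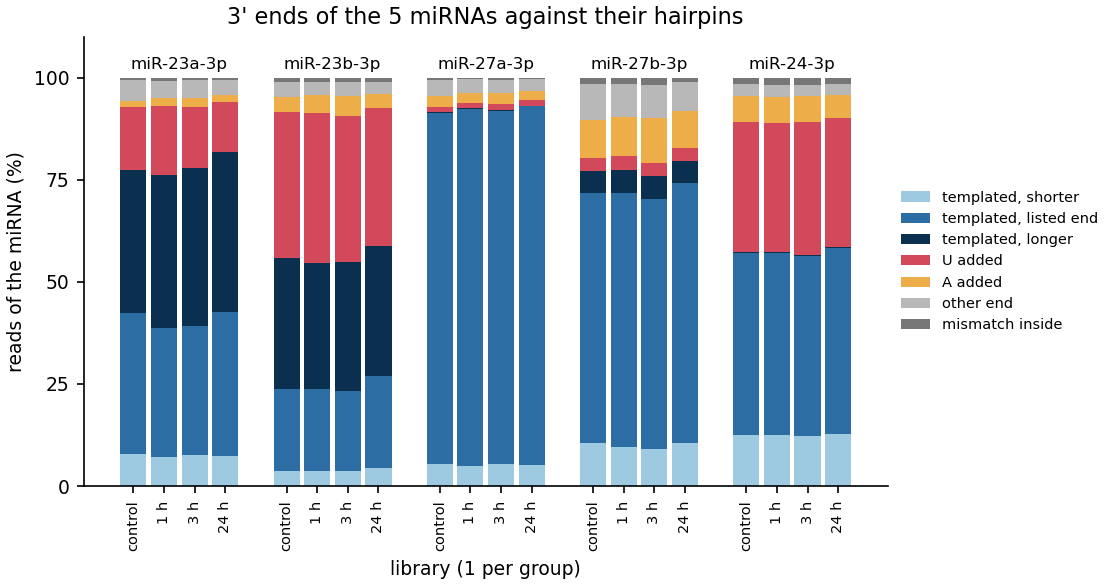
Share of the reads of each miRNA (vertical axis, percent) by 3′ end in the 4 libraries (horizontal axis): encoded ends shorter than, at or beyond the listed end, added U, added A, other ends of up to 3 added bases, and mismatches further in. Added U stands out in miR-23b-3p and miR-24-3p, and miR-27a-3p is nearly all of the listed sequence.

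The 5′ end decides the seed, and tags that started 1 base further in or out on the hairpin, which the member counts leave out, were compared between families. A start 1 base further in made up 3.60%, 3.77%, 3.75% and 2.88% of the miR-23 reads, and 3.32%, 2.67%, 3.04% and 2.69% of the miR-24 reads. For miR-27 it was 0.0554%, 0.0365%, 0.0725% and 0.0663%. miR-27 thus had the most precise start of the 3, with 98.8% to 99.2% of its reads at the listed base, against 95.7% to 96.6% for miR-23 and 95.9% to 96.7% for miR-24. Starts 1 base further out held 0.546% to 0.646% for miR-24, 0.601% to 0.833% for miR-27 and 0.456% to 0.509% for miR-23. Starts 2 bases further in held 0.264%, 0.226%, 0.184% and 0.117% for miR-27, more than its starts 1 base further in. They held 0.103% to 0.135% for miR-24 and 0.0298% to 0.0490% for miR-23. The most read shifted tags of miR-24 and miR-23 are shown with the new seed in capitals.
miR-24 starting 1 base further in: gGCTCAGTtcagcaggaacagt
miR-23 starting 1 base further in: tCACATTGccagggattaccact
The first had 3924 reads in the control, then 3351, 3776 and 3238 with Ang II, and the second 769, 590, 649 and 632. The second ends as the U form of miR-23b-3p does.

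No other rat miRNA in the table shares bases 2 to 8 with a member. miR-128-3p and miR-222-5p do so after a shift of 1 base: bases 2 to 8 of miR-128-3p (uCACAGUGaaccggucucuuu, seed in capitals) equal bases 3 to 9 of miR-27, and those of miR-222-5p equal bases 3 to 9 of miR-24-3p. miR-128-3p had 615, 475, 611 and 509 reads, far fewer than miR-27. miR-222-5p had 25, 40, 132 and 24 reads, past 1.5-fold at 3 h, at 5.29 times the control (3.43 to 8.47), where 4% of miRNAs were past it upward.

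Among the 83 other miRNAs with 1000 reads in every library, likeness was measured as the largest of the 3 absolute differences between log2 ratios to the control, over 4 libraries. Nearest to miR-24-3p was miR-30a-5p (0.05), then miR-185-5p (0.09) and miR-26a-5p (0.10). For miR-27b-3p they were miR-30c-5p (0.08), let-7i-5p (0.09) and miR-30a-5p (0.09), and for miR-23b-3p miR-22-3p (0.05), miR-125b-5p (0.05) and miR-1839-5p (0.06). miR-23a-3p and miR-27a-3p had no neighbour as close. Those of miR-23a-3p were miR-143-5p and miR-221-3p (0.11 each) and miR-140-3p (0.12), and those of miR-27a-3p were miR-3068-5p (0.13), miR-34a-5p (0.14) and miR-185-5p (0.16). These ratios share the control library.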

How the data were processed

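Small RNA of 17 to 52 nt was sequenced on a Genome Analyzer IIx from 0.5 ug of total RNA after 12 PCR cycles, per the labels' protocols. The authors deposited raw read counts of each distinct tag (16 to 42 nt), with no scaling. Novoalign and rn4 are named, with no role, in the submitters' processing notes. Trimming and filtering are not given in the sources used here. A row that names no sequence held 5.13% to 7.07% of reads and was left out.

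Levels, exact Poisson intervals, exact conditional ratio intervals, Clopper-Pearson shares, and normal intervals for changes of log2 read ratios were computed (Python 3.11.15, scipy 1.17.1), all of counting error. These intervals take reads as independent, although PCR copies are not independent molecules. TMM and median-of-ratios factors came from edgeR 4.0.16 (R 4.3.3). Simulated tags and counts were used to check the code for the matching and the calls. The simulated counts held counting error alone, so they say nothing of differences between cultures. The text names all members, the other arms of their hairpins, seed relatives, the 3 nearest miRNAs by ratio, and the most read tags. Alternatives were these scalings, a pseudocount of 10 RPM, other limits and other choices of tags. Members, lists and rules were chosen with earlier results of these data known.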

Additional observations from a re-analysis of the deposited data

Results flagged for a closer look

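miR-27a-5p stood above the control at 1 h, with a log2 ratio of 0.65, and below it at 24 h, with -0.79. Each value comes from 1 library, and the difference between the times was not tested. In tags outside the listed arms, the 20 bases that lie between the 2 arms of Mir27a (aggtctacagcaaagtcgtg) had 20, 44, 22 and 21 reads in the order control, 1 h, 3 h, 24 h. The 1 h value is 2.41 times the control (1.39 to 4.32, counting error only), and the 3 h and 24 h values are 1.10 (0.574 to 2.13) and 1.04 (0.536 to 2.02). Loop tags of Mir27b (6, 13, 6 and 6 reads) and Mir23b (1, 9, 4 and 1 reads) were also most read at 1 h, at 2.38 (0.843 to 7.63) and 9.88 times the control (1.37 to 433). These reads are too few to say whether the 1 h value is particular to Mir27a.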

How the results depend on the processing

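With the lower fold limit tried, 1 of the 5 miRNAs was past it at 1 h (miR-27a-3p). Under the other 12 alternatives, and at 3 h and 24 h under all 13, the count was 0. Counting the mature sequence alone took the difference of the ratio miR-23a-3p to miR-23b-3p to 0.0069, 0.060 and 0.15 at the 3 times, and that of miR-27a-3p to miR-27b-3p to 0.25 at 24 h. It also turned the sign of miR-23b-3p at 24 h (log2 ratio 0.07 in place of -0.11). Under the other 5 choices of tags (ties, tags read once, shifted starts, length) these stayed within their counting intervals. No paired analysis was possible because each group has 1 library and the labels carry no replicate number.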
